A study of Mus musculus with 16 samples.

Results

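Brown and white adipose tissue of the mouse were compared gene by gene in short-read RNA-seq counts, with 2 libraries of each tissue, 1 from fed and 1 from fasting mice. A gene was kept as a member of the comparison when the brown library exceeded the white library in both the fed and the fasting pair, or fell below it in both. Of 23580 genes tested, 17540 had the same direction in both pairs (74.4%): 8134 were higher in brown and 9406 higher in white adipose tissue. These 4 libraries are part of a set of 16 covering 8 tissues. The mice were male C57BL/6 animals, obtained at 12 weeks of age and acclimatized before the experiment, that either ate standard chow freely or were fasted for 24 h. Tissue of 3 mice per treatment was combined in equal parts before RNA was extracted, so that each tissue and treatment is represented by 1 pool and 1 library. No difference between animals can be measured, nor any spread between pools of the same tissue and treatment. The SEs and p-values rest on what is left after tissue and treatment are accounted for. That remainder is how unevenly the treatment difference varies among the 8 tissues, most of them not adipose. The labels do not name the white depot or the brown depot.

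Both tissues store triglyceride in adipocytes. Brown adipocytes burn it for heat: they are packed with mitochondria, and uncoupling protein 1 (Ucp1) lets protons return across the inner mitochondrial membrane without making ATP. White adipocytes release stored fatty acids and secrete hormones such as leptin (Lep), which reports fat stores to the brain. Brown adipocytes of the neck and back arise from the embryonic somites, in part from cells shared with skeletal muscle, while visceral white fat arises from other mesoderm and is covered by a mesothelium, the cell layer that lines the body cavities.

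The libraries held 14245178 (brown, fasting), 16608129 (brown, fed), 23290761 (white, fed) and 27427876 (white, fasting) counts. Levels are given in CPM, the count of a gene per unit of TMM-scaled library size, always in the order white fed, white fasting, brown fed, brown fasting unless the order is stated. Differences are on the log2 scale, brown minus white, with the standard error (SE) of the fit and 2 libraries on each side. A gene passed the test at an adjusted p under 0.05 in edgeR's quasi-likelihood test. The test was passed by 9134 genes, of which 9084 were members. Of all genes tested, 18.2% passed as higher in brown (4298 genes) and 20.5% as higher in white adipose tissue (4836 genes), and these shares are the background for every count below. The other 8456 members (48.2%) had the same sign in both pairs without passing. The median absolute log2 difference was 0.97 over the members and 0.21 over the genes that were not members. This gap follows in part from the rule, since opposite pair differences cancel in the fit. Just inside the rule among genes with a mean of at least 10 CPM lay Gtdc1, with log2 differences of -0.0001 in the fed and -0.3628 in the fasting pair. The nearest gene just outside was Uimc1, whose fasting pair differed by 0.5246 and whose fed pair was level to 4 decimals. Across the 9578 genes with a mean of at least 10 CPM, Pearson's r between the fed-pair and fasting-pair differences was 0.876, and it was 0.626 across all genes tested. This is a description across genes, which are not independent replicates, and the pairs share no library.

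The scaling sets where zero lies. With plain library totals in place of TMM factors, the median of all genes moved by -0.37, the genes passed as higher in brown fell to 2394 and those higher in white rose to 7365, so that the brown share of the calls was 24.5% in place of 47.1%. The median of all genes under TMM was -0.09. Calls near zero therefore depend on the scaling. In the direction of brown adipose tissue 983 members passed with a log2 difference above 2, 245 above 4 and 63 above 6. In the direction of white adipose tissue the corresponding numbers were 2245, 730 and 283.

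**Figure D1:**
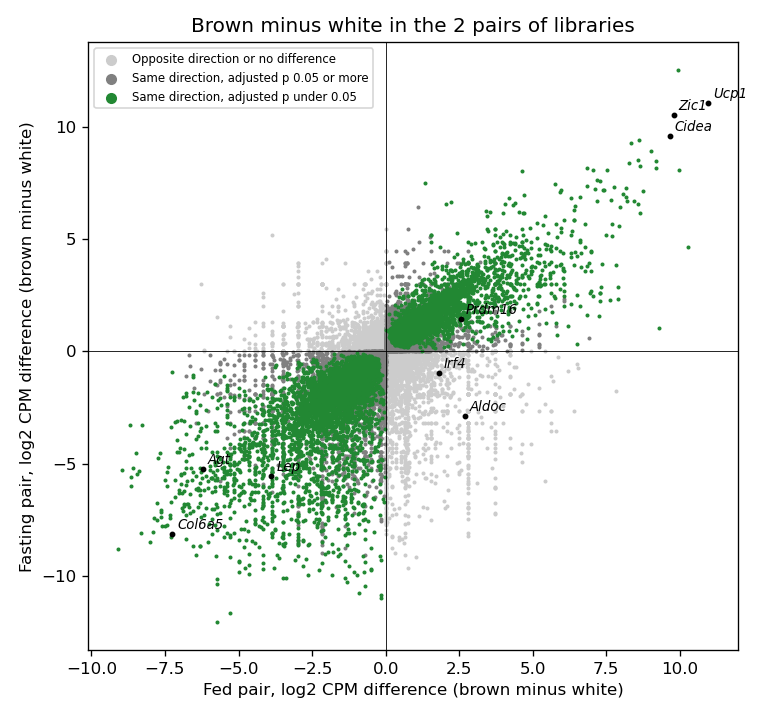
Each point is 1 of 23580 genes, with the log2 CPM difference (brown minus white) of the fed pair on the horizontal and of the fasting pair on the vertical axis. Green points had the same sign in both pairs and passed the test, dark grey points had the same sign and did not pass, and light grey points had opposite signs or no difference. Ucp1, Cidea and Zic1 lie at the upper right, Col6a5, Agt and Lep at the lower left, and Irf4 and Aldoc at the lower right.

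The labelled tissues were checked against their defining genes first. Ucp1 lay at 1.497, 1.144, 3013 and 2436 CPM. Both brown libraries were above both white libraries by a log2 difference of 11.01 (SE 0.65, adjusted p = 9.85e-07), and the highest mean of both treatments in any of the 6 other tissues was in muscle, at 2.62 CPM fed and 4.69 CPM fasting. Cidea, a protein of lipid droplets and mitochondria of brown adipocytes, lay at 2.195, 2.367, 1768 and 1836 CPM, a log2 difference of 9.64 (SE 0.60, adjusted p = 1.09e-06). Lep lay at 884.7, 187.5, 59.8 and 4.04 CPM. It was higher in white adipose tissue by 4.38 on the log2 scale (log2 difference -4.38, SE 0.57, adjusted p = 2.27e-04), and within each tissue the fed library was above the fasting library. The lowest white value of Lep was 187.5 CPM and the highest brown value 59.8 CPM. The rule already sets the direction in each pair, so a gap between the values of a member is a description and no further test. In whole tissue, fewer cells of a type and less RNA per cell cannot be told apart.

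The 250 bases before the annotated starts of Ucp1 and Lep are shown because these genes mark the 2 ends of the comparison (RefSeq, GRCm38.p6). The window of Ucp1 is chr8:83290098-83290347 and that of Lep chr6:29059971-29060220, both on the plus strand. The window of the ATP synthase c-subunit gene Atp5g3 (chr2:73911327-73911576, minus strand), is the only one among the 97 genes with a promoter entry of the 7 mitochondrial lists described below that held the extended half-site of the estrogen-related receptors, TCAAGGTCA, on either strand. Capitals mark the reverse complement of that motif, which starts 52 bases before the gene.
Ucp1: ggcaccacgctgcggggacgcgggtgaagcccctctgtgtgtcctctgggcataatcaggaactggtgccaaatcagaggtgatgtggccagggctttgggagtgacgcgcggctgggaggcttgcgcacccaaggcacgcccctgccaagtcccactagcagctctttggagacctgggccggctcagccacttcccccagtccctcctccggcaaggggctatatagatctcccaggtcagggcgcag
Lep: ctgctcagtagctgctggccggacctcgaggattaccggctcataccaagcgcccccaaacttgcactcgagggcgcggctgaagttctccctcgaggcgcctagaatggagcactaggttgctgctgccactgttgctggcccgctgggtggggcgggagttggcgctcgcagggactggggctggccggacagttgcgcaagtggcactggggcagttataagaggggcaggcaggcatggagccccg
Atp5g3: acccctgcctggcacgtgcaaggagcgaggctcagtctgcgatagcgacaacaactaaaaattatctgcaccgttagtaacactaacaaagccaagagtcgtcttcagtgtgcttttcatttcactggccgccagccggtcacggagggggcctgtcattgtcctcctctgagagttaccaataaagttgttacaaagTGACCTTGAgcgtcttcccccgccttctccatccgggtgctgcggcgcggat
The motif was held by 9 of 3028 genes with a promoter entry that were members passed as higher in brown (0.297%), by 11 of 3277 higher in white (0.336%) and by 44 of 14117 genes tested (0.312%). None of the 17 brown adipocyte genes with an entry held it, Ucp1 included. Over all 32851 windows of the same length in the table the share was 0.387%. A match of letters is a description of these windows and no evidence of binding.

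Genes known from brown adipocytes were higher in brown adipose tissue nearly throughout. Of 24 genes in the list, 23 were tested, all 23 were members, 22 passed as higher in brown and 1, Epsti1, as higher in white. The list's median log2 difference was 4.83, against -0.09 over all genes tested, and Ucp1 and Cidea are members of it, so the list and the tissue labels are not independent. Otop1, a proton channel, lay at 0.333, 0.234, 177.4 and 116.7 CPM (log2 8.99, SE 0.34). Dio2, the deiodinase that activates thyroid hormone, lay at 1.03, 0.260, 56.7 and 47.7 CPM (log2 6.45, SE 0.51). In both genes each brown library was far above each white library, a description as for Lep.

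Pank1, which makes coenzyme A, lay at 8.48, 11.3, 529.9 and 504.9 CPM (log2 5.74, SE 0.31). Slc27a2, a fatty acid transporter and acyl-CoA synthetase, lay at 7.25, 31.4, 221.1 and 764 CPM (log2 4.69, SE 0.62). Acot11, an acyl-CoA thioesterase first found in cold-exposed brown fat, lay at 3.13, 14.8, 498.1 and 107 CPM, and its log2 difference was 7.31 in the fed and 2.86 in the fasting pair. Kcnk3, a potassium channel of brown adipocytes, lay at 12.2, 31.0, 303.2 and 445.8 CPM (log2 4.17, SE 0.36). Letmd1, a mitochondrial protein needed for brown fat heat production, lay at 39.7, 33.9, 512.5 and 385.5 CPM (log2 3.61, SE 0.17). Mpzl2, a cell adhesion gene, had a log2 difference of 3.64 (SE 0.57) and Gk, glycerol kinase, of 2.2 (SE 0.58). Gk lost its call without the brown fed library (log2 1.97, adjusted p = 0.0552). Nrg4, a secreted growth factor of brown fat, differed least among those that passed as higher in brown, at 68.7, 114, 220 and 196.5 CPM (log2 1.26, SE 0.42, adjusted p = 0.0335), and did not pass without the brown fed library (log2 0.79, adjusted p = 0.289), the white fed library (log2 1.11, adjusted p = 0.115) or the white fasting library (log2 1.41, adjusted p = 0.0578), or with library totals (log2 0.87, adjusted p = 0.116). Epsti1, used as a marker of beige and brown adipocytes, went the other way at 5.82, 6.50, 2.66 and 1.44 CPM (log2 -1.63, SE 0.27, adjusted p = 7.20e-04).

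The transcription regulators of adipocytes went both ways. Of 29 tested, 17 passed as higher in brown and 5 as higher in white (median log2 0.74). Without the brown fed library 14 and 3 passed. The coactivators of mitochondrial biogenesis differed strongly: Ppargc1a lay at 10.1, 15.8, 99.7 and 133.9 CPM (log2 3.18, SE 0.39) and Ppargc1b at 10.1, 10.4, 165.2 and 124.1 CPM (log2 3.79). Their partners among the nuclear receptors included Ppara, which drives fatty acid oxidation genes, at 7.88, 11.0, 349.3 and 293.7 CPM (log2 5.11, SE 0.43). Esrra, the estrogen-related receptor alpha, lay at 33.5, 21.8, 133.4 and 94.2 CPM (log2 2.05), and Esrrg at 0.732, 9.34, 37.4 and 31.7 CPM (log2 2.78), which did not pass without the brown fed library (log2 2.56, adjusted p = 0.0503). All 4 adipose libraries showed these receptors, and no brown value of them fell below a white value, again a description.

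The regulators of brown identity differed less. Prdm16 lay at 9.01, 10.3, 52.8 and 27.5 CPM (log2 2.04, SE 0.29) and Ebf2 at 62.7, 49.2, 161.8 and 137.8 CPM (log2 1.42, SE 0.21). Pparg, the master regulator of all adipocytes, lay at 216.9, 157.8, 357.3 and 414 CPM (log2 1.02, SE 0.33, adjusted p = 0.0281). Its call was lost with library totals (log2 0.66, adjusted p = 0.125) and without the brown fed (adjusted p = 0.104), brown fasting (adjusted p = 0.111) or white fasting library (adjusted p = 0.185). Nfia, a regulator of brown fat genes, passed at a log2 difference of 0.74 (SE 0.20, adjusted p = 0.0119), with 0.23 in the fed and 1.26 in the fasting pair, and did not pass without the brown fasting (log2 0.45, adjusted p = 0.145) or the white fasting library (log2 0.45, adjusted p = 0.126), or with library totals (log2 0.37, adjusted p = 0.126). Regulators higher in white adipose tissue included Nrip1, a corepressor of oxidative genes, at 308, 163.8, 64.8 and 72.2 CPM (log2 -1.80, SE 0.31), and Zfp423, a factor that maintains white identity, at 59.7, 31.5, 24.4 and 18.8 CPM (log2 -1.06). Foxc2 was also higher in white (log2 -3.44), at levels of 2.69 CPM or less. So were Rxra, the partner of many nuclear receptors (log2 -0.87, SE 0.25), and Zfp516, an activator of Ucp1 (log2 -0.51, SE 0.13). Rxra did not pass without the brown fed (adjusted p = 0.12) or the white fed library (log2 -0.37, adjusted p = 0.191), nor Zfp516 without the brown fasting library (log2 -0.44, adjusted p = 0.0875). Zfp423 did not pass without the brown fed (adjusted p = 0.0714), brown fasting (adjusted p = 0.170) or white fed library (log2 -0.54, adjusted p = 0.241).

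**Figure D2:**
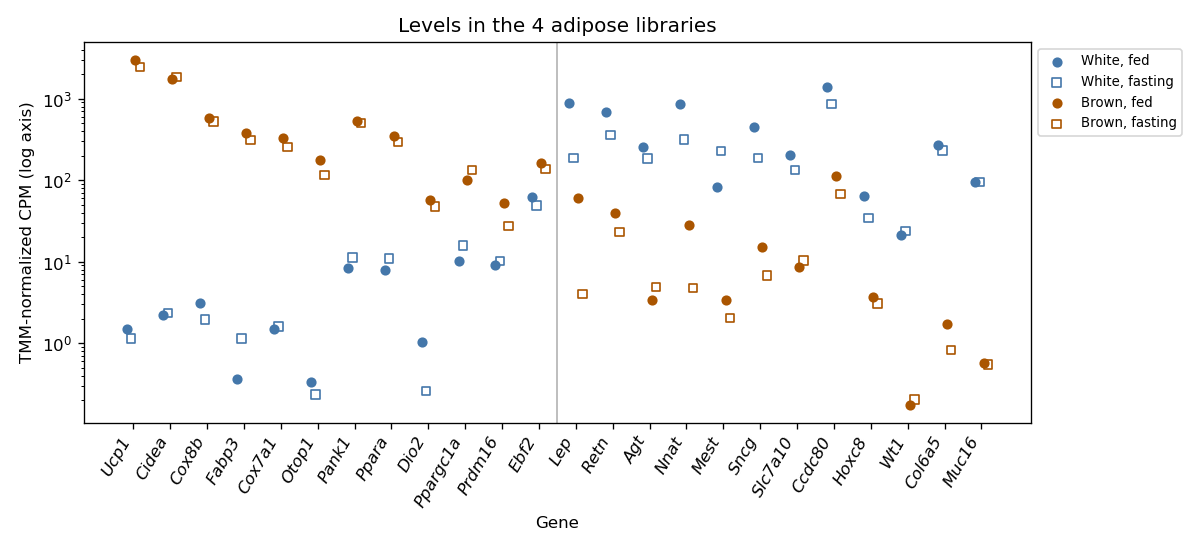
The level of 24 genes in the 4 adipose libraries, in TMM-normalized CPM on a log axis, with brown adipose tissue in brown and white in blue, circles for fed and open squares for fasting. The 12 genes left of the line are higher in both brown libraries and the 12 right of it in both white libraries; Ebf2 and Prdm16 have the smallest gaps on the left.

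The machinery of mitochondrial respiration was higher in brown adipose tissue in almost every nuclear-encoded part. Electrons pass from complexes I and II through III to IV while protons are pumped out, and ATP synthase uses the returning protons. All 36 complex I subunits tested passed as higher in brown, with log2 differences from 1.26 to 3.21 and a median of 2.56. So did all 4 subunits of complex II (median 3.05) and all 9 of complex III (median 3.24), and 15 of 17 of complex IV (median 3.06). Those counts were the same without any 1 of the 4 adipose libraries and with library totals. Summed over each list, complex I rose from 1894 and 1415 CPM in white to 10420 and 9838 CPM in brown adipose tissue, and complex III from 702.2 and 502.7 to 5417 and 5037 CPM. The core subunit gene Ndufs1 lay at 113.4, 70.9, 887.2 and 804.1 CPM (log2 3.21, SE 0.21), Sdha at 310.7, 264.3, 2328 and 2441 CPM (log2 3.05, SE 0.17), Uqcrc2 at 113, 81.2, 1046 and 935.5 CPM (log2 3.36, SE 0.18) and Cox4i1 at 216.8, 197.4, 1115 and 1114 CPM (log2 2.43, SE 0.16). The 37 genes encoded in mitochondrial DNA had 0 counts in every library of the table, so that their subunits were not measured here. Many subunit genes have processed pseudogenes with which reads can be shared, and how the counting treated such reads is not given in the sources used here, so the single values are less certain than the lists.

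Complex IV had the widest spread of these complexes, from 0.10 to 7.78, and some of its subunits exist in paired forms. Cox7a1 and Cox8b, the forms of heart, muscle and brown fat, differed most. Cox7a1 lay at 1.497, 1.613, 327.2 and 255 CPM (log2 7.53, SE 0.21) and Cox8b at 3.16, 1.95, 587.4 and 528.2 CPM (log2 7.78, SE 0.49), while their ubiquitous counterparts Cox7a2 and Cox8a differed by log2 2.48 and 2.05. In CPM per kilobase of exon, Cox7a1 made up 4.02% and 4.98% of Cox7a1 and Cox7a2 together in white, and 63.4% (95% exact binomial interval 62.5 to 64.2) and 58.4% (57.4 to 59.5) in brown adipose tissue. The intervals cover counting error only. The share was 72.2% in fed muscle and 79.8% in fed heart. Cox8b made up 2.68% and 2.16% of Cox8b and Cox8a in white and 58.6% and 55.6% in brown adipose tissue, against 95.4% in fed muscle and 87.0% in fed heart. The pair Cox6a2 and Cox6a1 did not follow: Cox6a2, which takes 97.3% of the pair in fed muscle and 94.8% in fed heart, took 0.858% and 0.227% in brown and 0.246% and 0.457% in white adipose tissue, and scaled muscle levels would give 80.5% and 102.1% of its fed and fasting brown level. Brown adipose tissue thus held the heart and muscle form of the 2 former pairs beside the ubiquitous form, and almost only the ubiquitous form of the latter.

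ATP synthase was higher in brown adipose tissue too, with exceptions in named places. Of 16 genes 13 passed as higher in brown and 2 as higher in white, with a median of 2.41. The catalytic subunits were among the most abundant, Atp5b at 921.9, 714.3, 4717 and 4954 CPM (log2 2.57, SE 0.22) and Atp5a1 at 570.3, 436.1, 3495 and 3281 CPM (log2 2.75, SE 0.21). The genes of the c-subunit, which forms the rotating ring in the membrane, lagged behind. Atp5g1 was higher in white, at 18.9, 18.5, 8.28 and 5.27 CPM (log2 -1.49, SE 0.19, adjusted p = 1.29e-04). Atp5g2 was higher in brown by log2 1.15, and Atp5g3, whose promoter window is printed above, lay at 104.9, 65.4, 125.6 and 108 CPM (log2 0.47) and did not pass. Per kilobase, Atp5g1 was at 3.85 and 3.78 CPM in white, 1.69 and 1.07 CPM in brown and 160.1 CPM in the fed heart. Its share of Atp5g1 and Atp5g2 together was 19.8% and 17.9% in white and 4.62% and 2.74% in brown adipose tissue. The other gene higher in white was Atpif1, the inhibitor of ATP synthase, at 17.6, 23.8, 9.96 and 7.40 CPM (log2 -1.26, SE 0.24, adjusted p = 0.00181). All 3 c-subunit genes encode the same mature protein from different precursors.

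**Figure D3:**
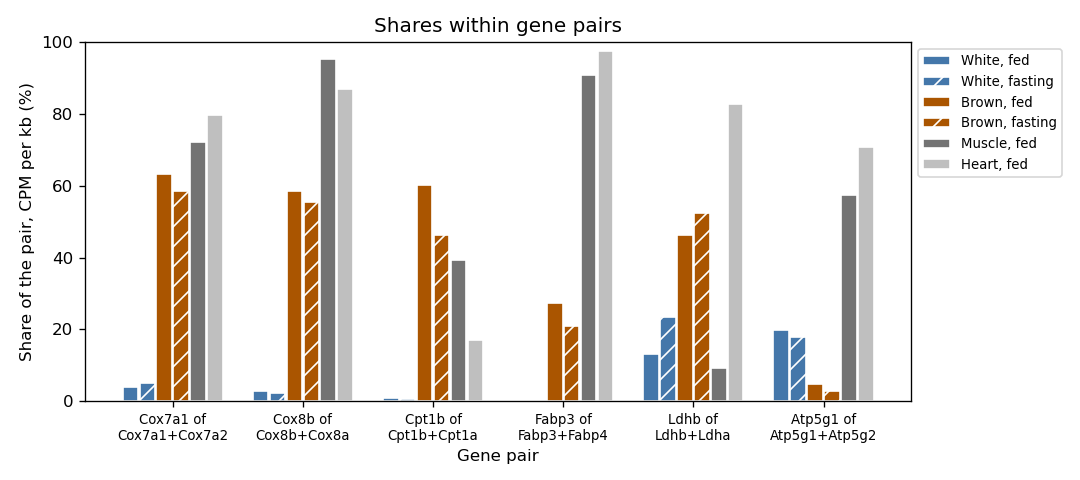
Share (%) that the first gene takes of the pair, from CPM per kilobase of exon, in the 4 adipose libraries and in fed muscle and heart; hatched bars are fasting. Cox7a1 and Cox8b take over 55% of their pairs in both brown libraries and under 5% in both white libraries, and Atp5g1 takes a smaller share in brown than in white adipose tissue.

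The fuel pathways that feed the mitochondria were also higher in brown adipose tissue. All 18 genes of the tricarboxylic acid cycle passed as higher in brown (median 3.10), and their summed level was 2561 and 1876 CPM in white against 25832 and 24794 CPM in brown adipose tissue. Of 22 genes of fatty acid oxidation 20 passed as higher in brown and 1 as higher in white (median 2.86). Hadhb, the beta subunit of the trifunctional protein, lay at 123.1, 112.1, 2178 and 2122 CPM (log2 4.19, SE 0.32) and Acadvl, the very long chain acyl-CoA dehydrogenase, at 125.6, 110.4, 1973 and 2204 CPM (log2 4.13, SE 0.25). The counts of both lists were the same with library totals.

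The exception in that list was the entry step. Carnitine palmitoyltransferase 1 admits fatty acids to mitochondria, and its 2 forms went in opposite directions. Cpt1b, the muscle form, lay at 0.399, 0.286, 14.5 and 15.5 CPM (log2 5.45, SE 0.59, adjusted p = 4.22e-05). Cpt1a, the liver form, lay at 93.9, 119.7, 21.8 and 40.8 CPM (log2 -1.86, SE 0.33, adjusted p = 0.00113). Per kilobase Cpt1b took 0.954% and 0.539% of the 2 genes in white and 60.1% and 46.2% in brown adipose tissue. Its share was 39.4% in fed muscle and 17.1% in fed heart, below both brown shares. The high brown share is therefore no likeness to muscle or heart. Of the fatty acid binding proteins, Fabp3, the heart form, lay at 0.366, 1.14, 379.8 and 313.6 CPM (log2 8.83, SE 0.40, adjusted p = 4.77e-07). Fabp4, the adipocyte form, lay at 4364, 4428, 5522 and 6464 CPM (log2 0.42) and did not pass. Among the uncoupling proteins, Ucp3 lay at 18.2, 33.6, 120.9 and 101.9 CPM and Ucp2 at 89.6, 177.4, 30.1 and 51.8 CPM, with Ucp3 above and Ucp2 below the white libraries in both brown libraries.

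Genes of glucose use were higher too. Of 25 genes of glucose uptake and glycolysis, 21 passed as higher in brown and 1 as higher in white (median 2.16). For 3 of the 21, genes also strongly expressed in muscle, the muscle level scaled to the median share of the muscle markers would give over 10% of the brown level: 105% fed and 136.5% fasting for Pgam2, 116.5% and 92.6% for Eno3, and 33.2% and 24.8% for Pfkm. Pdk4, which blocks pyruvate dehydrogenase, lay at 23.6, 241.9, 1842 and 4518 CPM (log2 5.50, SE 0.91), and Pdha1, a subunit of that enzyme, at 264, 182.9, 2348 and 2286 CPM (log2 3.38, SE 0.20). Pkm, the muscle pyruvate kinase gene, lay at 211.7, 154, 1515 and 755.6 CPM (log2 2.61, SE 0.25). The glucose transporters diverged: Slc2a4, the insulin-responsive one, was at 168.2, 45.3, 470.8 and 234.9 CPM (log2 1.80), and Slc2a1 at 14.07, 21.98, 8.513 and 7.81 CPM (log2 -1.14, SE 0.23, adjusted p = 0.00270). Lactate dehydrogenase shifted in its makeup. Ldhb, the heart form, took 12.99% and 23.6% of Ldhb and Ldha per kilobase in white and 46.3% and 52.5% in brown adipose tissue, although both genes passed as higher in brown (log2 3.58 and 1.39). Ldha did not pass without the brown fed (log2 1.09, adjusted p = 0.0973) or the white fasting library (log2 1.04, adjusted p = 0.0768).

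Genes of lipid synthesis were higher in brown adipose tissue, with fewer calls that held. Of 20 genes, 12 passed as higher in brown and none as higher in white (median 1.70), with 9 passing under library totals and 7, with 1 higher in white, without the brown fed library. The list's summed level was 30579 and 23847 CPM in white and 105669 and 91451 CPM in brown adipose tissue. Scd1, the stearoyl-CoA desaturase, was the most abundant gene in all 4 libraries at 17961, 16960, 53322 and 59343 CPM (log2 1.71, SE 0.52, adjusted p = 0.0235). Its call was lost with library totals (adjusted p = 0.0708), without the brown fasting library (log2 1.29, adjusted p = 0.163) and without the white fed library (log2 1.49, adjusted p = 0.0891). Fasn, fatty acid synthase, lay at 5123, 670.1, 27172 and 13594 CPM (log2 3.14, SE 0.66), with the fasting white library lowest. Elovl6, a fatty acid elongase, lay at 33.3, 16.8, 1003 and 746.3 CPM (log2 5.18), and Elovl3, the elongase induced by cold, at 0.466, 0.286, 10.02 and 28.7 CPM (log2 5.67, SE 0.71). Pck1, which supplies glycerol phosphate for triglyceride, lay at 1285, 2867, 3896 and 8041 CPM (log2 1.54, SE 0.50, adjusted p = 0.0300) and lost its call when any 1 of the 4 adipose libraries was left out (log2 1.43 to 1.6, adjusted p = 0.0806 to 0.116).

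Of 12 genes shared by all adipocytes, 3 passed as higher in brown (Retsat, Pnpla2 and Pparg) and 1 as higher in white (Cfd), with a median of 0.16, where 38.7% of all genes tested passed in either direction. The 3 did not pass with library totals, nor without the brown fed or the white fasting library, and the list's median became -0.20 with library totals. Adipoq, adiponectin, lay at 1941, 1603, 1073 and 973.1 CPM (log2 -0.79), Plin1, the main lipid droplet coat, at 1566, 532.5, 1211 and 904.9 CPM (log2 0.14), and Cd36, a fatty acid receptor, at 3187, 3049, 2905 and 3331 CPM (log2 -0.02), and none of these passed. Summed levels of the list were 26855 and 23065 CPM in white and 19776 and 23926 CPM in brown adipose tissue, which overlap. Among 21 lipid droplet and lipolysis genes 8 passed as higher in brown and 2 as higher in white (median 0.46). Without the brown fed library 4 and 2 passed, without the brown fasting library 8 and 1, and with library totals 5 and 2 at a median of 0.08. Plin5, the coat that couples droplets to mitochondria, was at 5.95, 17.7, 157 and 196.7 CPM (log2 4.15, SE 0.49). Plin4, a coat of large droplets, was at 4197, 4020, 1192 and 1178 CPM (log2 -1.80, SE 0.44, adjusted p = 0.00776) and lost its call without the brown fasting library (log2 -1.36, adjusted p = 0.0799) or the white fed library (log2 -1.14, adjusted p = 0.0655). The beta-adrenergic receptors, through which nerves start lipolysis, also differed in kind: Adrb3 was higher in white at 609.3, 439, 240.3 and 80.7 CPM (log2 -1.80, SE 0.34), and Adrb1 higher in brown at 6.29, 4.21, 45.2 and 13.7 CPM (log2 2.42).

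Genes of cycles that can spend energy without Ucp1 went both ways. Of 14 genes, 7 passed as higher in brown and 4 as higher in white (median 0.84). The glycerol phosphate shuttle was higher in brown: Gpd1 lay at 484.5, 159.3, 5085 and 2443 CPM (log2 3.56, SE 0.51) and Gpd2 at 78.6, 32.4, 1460 and 903.4 CPM (log2 4.45, SE 0.32). Of the creatine genes, Ckb was higher in white at 42.9, 122.1, 21.3 and 14.7 CPM (log2 -2.26, SE 0.44, adjusted p = 0.00209), as were Gamt (log2 -1.94, SE 0.54), Gatm (log2 -1.18) and Ckmt1, which was under 1 CPM in every adipose library (ratio of white to brown 12.3, 95% exact interval 3.25 to 104.4). Ckmt2, the mitochondrial creatine kinase of muscle and heart, passed the other way at 0.499, 0.572, 18.8 and 4.93 CPM (log2 4.38, SE 0.50), and the muscle level scaled to the median share of the muscle markers would give 73.9% of its fed and 94.9% of its fasting brown level. Of the 4 genes higher in white only Ckb passed without the brown fasting library (log2 -2.06, adjusted p = 0.0319). Gamt also did not pass without the brown fed (adjusted p = 0.0894) or the white fed library (log2 -0.66, adjusted p = 0.225). Atp2a2, the calcium pump of slow muscle and other tissues, lay at 169.9, 208.2, 333.5 and 315.3 CPM (log2 0.78, SE 0.26, adjusted p = 0.0376) and did not pass with library totals (log2 0.38, adjusted p = 0.273) or without the brown fed (adjusted p = 0.144), brown fasting (adjusted p = 0.119) or white fed library (adjusted p = 0.178). Atp2a1, the pump of fast muscle, lay at 13.9, 13.7, 376 and 167.8 CPM (log2 4.31), and the muscle marker values below apply to it.

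White adipocyte genes were the mirror of the brown list. Of 16, 14 passed as higher in white and none as higher in brown, with a median of -4.17 against -0.09 over all genes tested. Rbp4, the retinol carrier, lay at 107.9, 70.6, 47.6 and 53.5 CPM (log2 -0.84, adjusted p = 0.108) and did not pass, and Hoxc10 was under 0.2 CPM in all 4 libraries. Agt, angiotensinogen, lay at 256.3, 185.8, 3.42 and 4.93 CPM (log2 -5.77, SE 0.36). Retn, the hormone resistin, lay at 680.6, 357.7, 39.8 and 23.3 CPM (log2 -4.02, SE 0.36). Nnat, an imprinted gene, lay at 854.9, 314.6, 28.0 and 4.79 CPM (log2 -5.31, SE 0.57), and Mest, another imprinted gene that follows adipocyte growth, at 83.6, 227.7, 3.36 and 2.05 CPM (log2 -5.92, SE 0.58). In each of these 4 genes every white library was above every brown library, which the rule largely sets.

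Sncg, gamma-synuclein, lay at 452.2, 187.6, 15.2 and 6.78 CPM (log2 -4.84, SE 0.50), Slc7a10, an amino acid transporter of white adipocytes, at 205.3, 132.7, 8.69 and 10.3 CPM (log2 -4.11, SE 0.28), and Ccdc80, a secreted matrix protein, at 1391, 864.4, 113.6 and 67.5 CPM (log2 -3.64, SE 0.26). Wfdc21 had a log2 difference of -4.23 (SE 0.44) and Dpt, dermatopontin, of -2.16 (SE 0.18). Npr3, the clearance receptor of natriuretic peptides, had one of -2.86 (SE 0.64) and did not pass without the brown fasting library (log2 -2.32, adjusted p = 0.0504). Among 24 secreted factors tested, 12 passed as higher in white and 4 as higher in brown (median -1.94), with library totals 17 and 3, and without the brown fed library 12 and 2. Cfd, adipsin, was the most abundant of them in both white libraries (log2 -2.44, SE 0.51). It lay at 6237, 4851, 1113 and 935.3 CPM, and Adipoq was above it in the fasting brown library. Nampt, which makes NAD precursors, went the other way at 121.5, 92.8, 559.8 and 873.5 CPM (log2 2.69, SE 0.28).

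**Figure D4:**
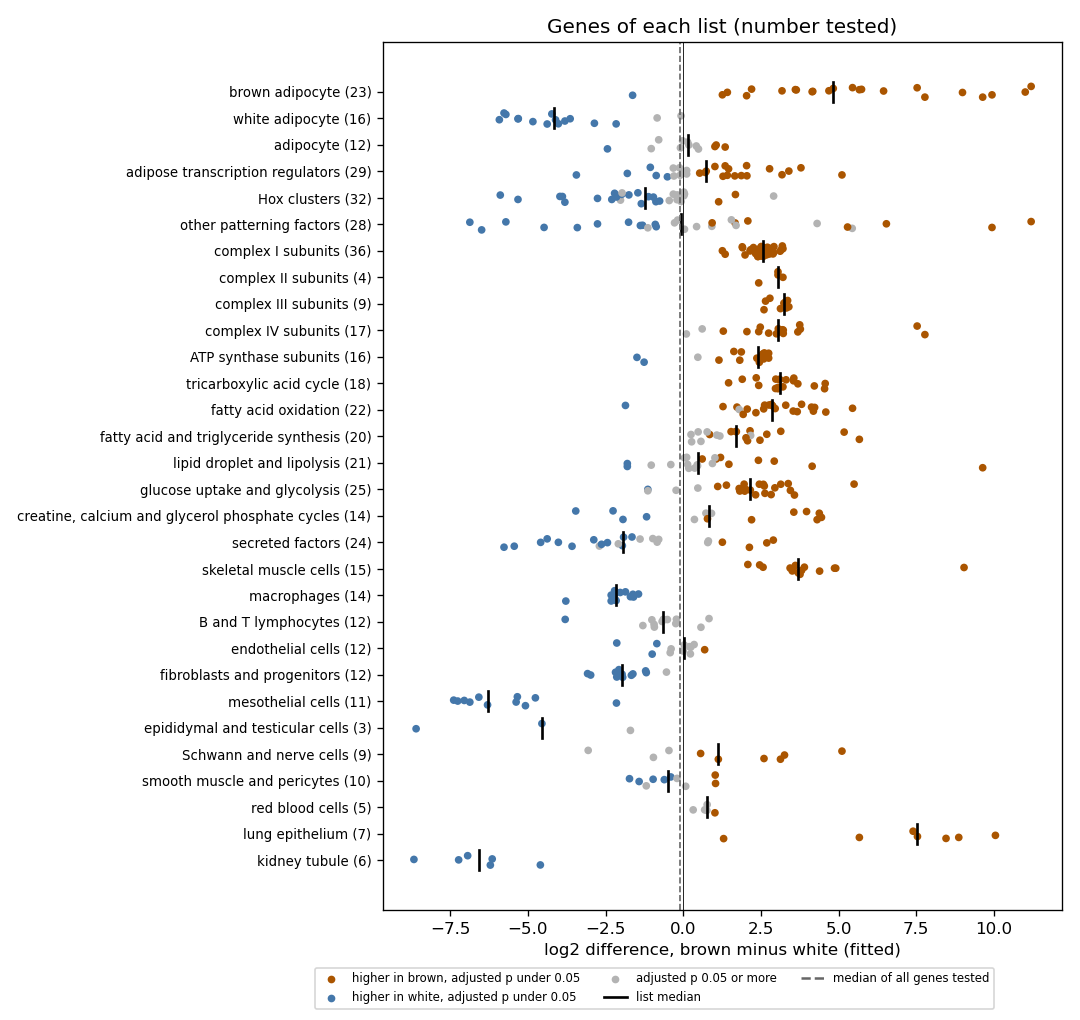
The fitted log2 difference (brown minus white) of every tested gene of 30 lists, with the number tested in brackets; brown points passed as higher in brown, blue as higher in white and grey did not pass. Bars are list medians and the dashed line is the median of all genes tested (-0.09); the respiratory lists lie between 1 and 4 with few exceptions, and the mesothelial, macrophage and fibroblast lists lie wholly below 0. Values beyond 6 in size belong mostly to genes close to 0 counts in 1 tissue and are no bounds.

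Genes that record embryonic position also differed between the tissues. Of 39 Hox genes, which pattern the body from head to tail, 32 were tested, 22 had the same direction in both pairs, 18 passed as higher in white and 2 as higher in brown (median -1.23). Without the brown fasting library 7 and 2 passed, and without the brown fed library 11 and 1. The 2 higher in brown were neighbours at the head end of their cluster. Hoxa5 lay at 9.25, 10.9, 22.4 and 21.7 CPM (log2 1.14, SE 0.21, adjusted p = 0.00129) and Hoxa4 at 3.16, 2.63, 12.5 and 6.09 CPM (log2 1.68, SE 0.50, adjusted p = 0.0212). Hoxa4 did not pass with library totals (log2 1.30, adjusted p = 0.0625), without the brown fed library (log2 0.96, adjusted p = 0.271) or without the white fasting library (log2 1.57, adjusted p = 0.0611).

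By cluster, 6 of 8 tested Hoxb genes, 3 of 7 Hoxc genes, 5 of 6 Hoxd genes and 4 of 11 Hoxa genes passed as higher in white. Hoxc8 lay at 63.6, 34.6, 3.71 and 3.08 CPM (log2 -3.81, SE 0.34) and Hoxc9 at 3.39, 2.03, 0.0579 and 0.0685 CPM, where the brown libraries held so few counts that the ratio of white to brown was 41.9 (95% exact interval 11.4 to 348.3). Hoxc6, the next in the cluster, was lower in brown in both pairs (log2 -0.96, SE 0.32, adjusted p = 0.0368) and did not pass without the brown fed (adjusted p = 0.0656), brown fasting (adjusted p = 0.244) or white fed library (adjusted p = 0.197). Hoxc4 and Hoxc5 lay at 11.97, 10.35, 8.98 and 7.33 CPM and at 20.6, 8.97, 17.4 and 8.15 CPM and did not pass. Hoxc5 overlaps Hoxc6, Hoxc8, Hoxc9 and Hoxc10 on the same strand in the annotation, and Hoxa3 overlaps Hoxa4. Reads in a shared stretch may not have been assigned to either gene. Hoxb9 lay at 1.56, 12.4, 0.405 and 0.342 CPM, with the white fasting library far above the white fed library.

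**Figure D5:**
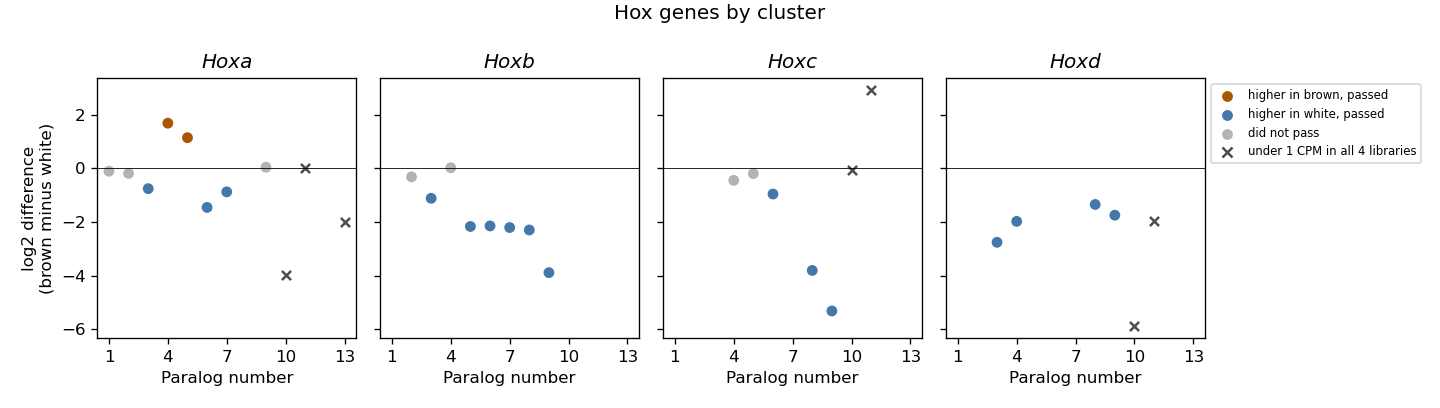
The log2 difference (brown minus white) of the tested Hox genes against their paralog number, 1 panel per cluster; colours as in the plot of the lists, and crosses mark genes under 1 CPM in all 4 libraries. Hoxa4 and Hoxa5 are the only points in brown, and Hoxb, with 6 of 8 points in blue, has a median of -2.16.

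Other patterning factors were divided: of 28 tested, 7 passed as higher in brown and 11 as higher in white (median -0.07). Zic1, a factor of the somites, had 0 counts in both white libraries and 8.57 and 14.2 CPM in the brown libraries. Against a floor of 3 counts over both white libraries it was at least 255.1-fold higher in brown. Lhx8 had 0 counts in white and 3.13 and 6.03 CPM in brown adipose tissue, at least 101.8-fold higher, and its fitted difference did not pass with DESeq2 (adjusted p = 0.199). Tbx15 lay at 0.0998, 0.312, 10.9 and 6.64 CPM (log2 5.29), where muscle levels scaled as described below would give 32.6% of its fed and 24.9% of its fasting brown level, and Tbx5, a factor of the forelimb field and heart, at 0.133, 0.0520, 12.3 and 5.41 CPM (log2 6.54). Pax7 and Myf5, which mark muscle progenitors, were at 0.405 CPM or less in every adipose library. On the other side stood factors of the visceral mesoderm. Wt1 lay at 21.4, 23.9, 0.174 and 0.205 CPM (log2 -6.87, SE 0.42), Tcf21 at 3.19, 3.88, 0.0579 and 0.0685 CPM (a ratio of 57.0, 95% exact interval 15.6 to 473.2), and Gata6 at 26.4, 21.4, 2.72 and 1.71 CPM (log2 -3.41).

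By size of the difference, the 12 genes most above white among members that passed and had at least 10 CPM in both brown libraries were AC153155.2, Ucp1, Cidea, Myh7, Otop1, Fabp3, Lgr6, Cox8b, Scgb1a1, 9130214F15Rik, Cox7a1 and Gm10032. AC153155.2, a long noncoding RNA gene of chromosome 18, had 1 count in the white libraries together, and lay at 42.5 CPM fed and 56.8 CPM fasting in brown adipose tissue (ratio 3360, 95% exact interval 602.2 to 132800). Its highest other tissue, by the mean of both treatments as for the genes below, was the heart, at 0.383 CPM fed and 0.0748 CPM fasting. Lgr6, a receptor of R-spondins, lay at 0.333, 0.312, 99.3 and 49.9 CPM (log2 7.82, SE 0.45) and reached 86.2 CPM in the fed and 98.9 CPM in the fasting heart. 9130214F15Rik, a transcript listed as not yet proven experimentally, lay at 0.200, 0.156, 61.0 and 16.9 CPM, and its highest other tissue was the kidney, at 0.208 CPM fed and 0.188 CPM fasting. Gm10032, another long noncoding RNA gene, lay at 0.233, 0.494, 41.6 and 73.5 CPM (log2 7.49, SE 0.76).

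The same limits, with at least 10 CPM in both white libraries, gave the 12 genes most above brown. These were Col6a5, Muc16, Upk1b, Slpi, Upk3b, Lrp2, Wt1, Wnt2b, Mroh2a, Msln, Sult1e1 and Kap. Col6a5, a collagen chain, lay at 268.6, 232.4, 1.74 and 0.822 CPM (log2 -7.62, SE 0.39), and its highest other tissue was the spleen, at 6.00 CPM fed and 7.90 CPM fasting. Sult1e1, the estrogen sulfotransferase, lay at 56.4, 25.98, 0.579 and 0.479 CPM (log2 -6.22, SE 0.74). Lrp2, the endocytic receptor megalin, lay at 27.1, 506.2, 1.85 and 1.85 CPM, so that the white fasting library stood far above the white fed library, and it was at 7672 CPM in the fed kidney. Muc16, Upk1b, Upk3b, Msln and Wt1 are on the list of mesothelial markers.

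Cell types other than adipocytes differed between the tissues as well. All 11 mesothelial markers passed as higher in white (median -6.30), with summed levels of 307.7 and 442.1 CPM in white and 8.92 and 12.6 CPM in brown adipose tissue. Muc16, the most abundant, lay at 94.9, 94.8, 0.579 and 0.548 CPM (log2 -7.39, SE 0.33). All 14 macrophage markers passed as higher in white (median -2.18, sums of 1123 and 1018 CPM against 260.2 and 252.3 CPM), among them Lyz2 (log2 -2.21, SE 0.14) and Csf1r (log2 -2.32, SE 0.17). Of 12 markers of fibroblasts and progenitors 11 passed as higher in white (median -1.96), with Col3a1 at 1922, 998.2, 578.8 and 215.3 CPM and Fn1 at 856.3, 587.6, 94.4 and 74.9 CPM (log2 -3.08, SE 0.17). Of 12 lymphocyte markers 1 passed as higher in white, or 4 with library totals and 2 without the white fasting library. The 1 was Ighm, at 261.8, 54.5, 12.6 and 8.15 CPM (log2 -3.80, SE 0.53).

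Vessels and nerves gave smaller differences. Of 12 endothelial markers 1 passed as higher in brown and 3 as higher in white (median 0.02), and with library totals none and 5 (median -0.36). Cdh5, VE-cadherin, lay at 239, 179.3, 233 and 258.7 CPM and Pecam1 at 230.8, 196.4, 132.9 and 199.4 CPM, and neither passed. Vwf, a marker of larger vessels, was higher in white at 201.4, 96.0, 35.0 and 33.4 CPM (log2 -2.14, SE 0.33). Of 9 Schwann and nerve cell markers tested 6 passed as higher in brown (median 1.13). S100b, which brown adipocytes also make, lay at 0.898, 0.754, 39.2 and 21.2 CPM (log2 5.11, SE 0.57), and Cdh19 at 1.30, 2.03, 10.7 and 18.9 CPM (log2 3.13, SE 0.29). Of 10 smooth muscle and pericyte markers 2 passed as higher in brown and 5 as higher in white (median -0.51), with library totals none and 6, and without the brown fed library none and 2. Acta2, smooth muscle actin, lay at 126.9, 126.8, 37.7 and 38.7 CPM (log2 -1.73, SE 0.28). Of 5 red blood cell markers 1 passed, Hbb-bs (log2 1.02, SE 0.30, adjusted p = 0.0190), which did not pass with library totals or without either brown library or the white fasting library.

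Skeletal muscle markers moved with the brown libraries. All 15 passed as higher in brown (median 3.70), with sums of 238.2 and 237.2 CPM in white and 3579 and 1599 CPM in brown adipose tissue, and none was at 0 in any adipose library. Over the 15 markers, the median of the brown level as a percentage of the level in the muscle library, with both levels taken here per plain library total and not TMM-scaled, was 1.71% in the fed and 0.778% in the fasting pair, with a range of 1.22% to 62.8% in the fed pair. The marker with the highest percentage was Myh7, slow myosin, at 0.0998, 0.0260, 64.2 and 10.1 CPM. At those medians, and with either scale since the scaling factors cancel, muscle levels would give 0.779% of the fed brown level of Cox7a1, 0.664% of Cox8b, 0.879% of Fabp3, 0.705% of Ndufs1 and 0.000794% of Ucp1, and 69.7% of Atp2a1. For Atp5g1, higher in white, the value was 48.0% of its fed brown level. All these values would be larger at the percentage of Myh7, which was not carried to the genes. Without the genes for which the value at the medians exceeded 10% in the fed or the fasting pair, 4108 of 4298 genes remained as higher in brown. This selection was made after the data were seen.

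Markers of lung and kidney, chosen after the levels had been seen, also differed. All 7 lung epithelium markers passed as higher in brown, with sums of 1.36, 2.71, 56.0 and 80.3 CPM, and Scgb1a1, the club cell protein, lay at 0.233, 0.130, 28.0 and 39.8 CPM against 8705 CPM in the fed lung. Their list's median log2 difference was 7.54, or 6.84 with genes at 0 in white set to their bound. Per plain library total, the median of the markers was 0.222% and 0.285% of the lung level in the fed and fasting brown libraries. All 6 kidney tubule markers passed as higher in white, with sums of 26.3, 28.3, 0.174 and 0.479 CPM, and per plain library total their median was 0.111% and 0.154% of the kidney level in the white libraries. Their median log2 difference was -6.58, or -5.37 with bounds. Kap, an androgen-regulated kidney gene among the 12 named above as most above brown, lay at 15.8, 13, 0.116 and 0.274 CPM against 16746 CPM in the fed kidney. Of 13 epididymal and testicular genes 3 were tested and 2 passed as higher in white, Lcn5 at 3.69 and 0.338 CPM and Adam7 at 3.49 and 0.338 CPM in the fed and fasting white libraries. Lcn5 had 0 counts in brown and was at least 19.2-fold higher in white, and the ratio for Adam7 was 27.4 (95% exact interval 7.43 to 229.3). Neither passed with DESeq2 (adjusted p = 0.246 and 0.0888), without the brown fed library (0.112 and 0.269) or without the white fed library (0.0592 and 0.220), and Adam7 did not pass without the brown fasting library either (adjusted p = 0.0577). The list's median was -4.55, or -4.27 with bounds. The part of muscle, lung, kidney and epididymal RNA in the other results was not tested beyond the percentages given.

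The levels in the 6 tissues that the comparison did not use were set beside it. Of the 4295 members that passed as higher in brown, 50.1% had their highest other-tissue level in muscle or heart, against 27.5% of all genes tested and 17.3% of the 4789 members higher in white. For 983 members with a log2 difference above 2 the share was 61.2%, and the heart alone was the highest for 333 of them (33.9%, against 10.6% of all genes tested). Spleen or lung was the highest other tissue for 14.4% of the members higher in brown, 52.5% of those higher in white and 41.5% of all genes tested. The median log2 level in muscle and heart minus that in the other 4 tissues was 0.48 for the members higher in brown, -0.60 for those higher in white and -0.23 for all genes tested. Leaving out the genes of the 7 mitochondrial lists (the 4 respiratory complexes, ATP synthase, the tricarboxylic acid cycle and fatty acid oxidation) gave 48.9% for muscle or heart, and leaving out the genes for which muscle markers could give over 10% of the brown level gave 47.9%. The muscle and heart libraries share the fit that gave the calls, since its estimate of the spread uses all 16 libraries, and the count higher in brown was 3459 when they were left out of it.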

How the data were processed

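RNA-seq of pooled mouse tissue gave 16 libraries, 1 per tissue and treatment. The deposited table holds raw counts per gene: per the submitters' processing notes the authors used fastp 0.23.2, FastQC 0.11.8, the aligner HISAT2 2.2.1.0 (GRCm38) and featureCounts (Subread 2.0); the deposited length column (other) holds exon bases per gene. Whether reads or pairs were counted, and the strand setting, is not given in the sources used here.

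Here, edgeR 4.0.16 (R 4.3.3) fitted tissue and treatment on all 16 libraries (TMM scaling, filterByExpr, quasi-likelihood test, 7 residual degrees of freedom, Benjamini-Hochberg adjustment over 23580 genes), and brown was tested against white adipose tissue. The study used Fisher's exact test for fasting against fed. Here that test was run on brown against white within each treatment, and is among the alternatives, with DESeq2 1.42.0. Pair differences used a prior count of 0.25. Floors are 3 counts over both libraries of a tissue. Intervals are exact 95% binomial intervals. Depth was 14245178 to 27427876 counts in the adipose libraries.

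The members and gene lists were chosen with earlier results of these data known. Genes were named as Ucp1, Cidea and Lep; the 12 largest differences each way with at least 10 CPM; in each list up to 4 passing members of highest level and 2 against the list's median; all brown and white adipocyte genes; and list genes with opposite pairs beyond 0.5. Other genes named, the gene pairs and the lung and kidney lists were chosen after their values were seen. Symbols came from GENCODE (55144 of 55385 identifiers matched); where 2 identifiers share a symbol, the one with more counts was used. Promoters are from RefSeq. Results for a few genes are not reported here.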

Additional observations from a re-analysis of the deposited data

Results flagged for a closer look

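Of the list genes, the 7 given here differed between brown and white adipose tissue in opposite directions, by more than 0.5 on the log2 scale in each pair, in fed and in fasting mice. With 1 library per tissue and treatment, the difference between the pairs was not tested. Each value is the fasting-pair difference minus the fed-pair difference. Irf4, a regulator of the fasting response of adipocytes, lay at 18.1 and 62.8 CPM in fed white and brown, and at 238.7 and 122.2 CPM in fasting white and brown adipose tissue, a change of -2.77. Scd2, a desaturase, changed by -2.72, with the fasting brown library lowest at 39.7 CPM. Lpl, lipoprotein lipase, lay at 4886 and 3796 CPM in fed and fasting white and at 2905 and 5406 CPM in fed and fasting brown adipose tissue, a change of 1.26. Aldoc (-5.55), Cideb (-5.35), Ncmap (-3.68) and Hoxa2 (-2.17) were at 6.22 CPM or less in every adipose library.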

How the results depend on the processing

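The number of genes higher in brown adipose tissue was 4298. It was 2394 with library totals, 2518 with library totals without the 10 highest genes, 2797 with the 4 adipose libraries only, 2381 with the log2 difference also above 1 and 2728 in the fasting pair alone (Fisher's exact test), and 3006 to 3895 without any 1 adipose library. The number of genes higher in white adipose tissue was 4836. It was 7365 with library totals, 3207 with the 4 adipose libraries only and 8383 in the fasting pair alone, and 2894 to 4879 without any 1 adipose library, lowest without the brown fasting library. The 4 adipose libraries alone leave 1 residual degree of freedom. All 4836 genes higher in white passed in the same direction with library totals too, and 2394 of the 4298 higher in brown did. Library totals move the median of all genes by -0.37, toward white. The overlap in white follows from that shift and does not show that those calls are firmer. Other alternatives kept both counts within 1.5 times. The genes with the same direction in both pairs numbered 18034 with library totals and 17611 with DESeq2 size factors. The next tally covers genes named by the stated rules and leaves out other genes named in the text. Of 166 named genes, 156 passed, and 127 of these passed without each adipose library in turn. In the pair-wise Fisher tests, which use library totals, Nfia turned to -0.08 in the fed pair and Cspg4 to -0.07 in the fasting pair. A change of scaling moves all genes of a pair alike, so no conclusion about these genes is drawn. The treatment term pairs the brown and white pools of the same treatment, and without it 3881 genes were higher in brown and 4471 in white. Depth limits genes near the floor, which is 3 counts over both libraries of a tissue.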
